A study of Mus musculus with 6 samples.

Results

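The transcripts described here encode 9 chains of cytokine receptors that T helper cells use to sense interleukins: Il4ra, Il7r, Il12rb1, Il12rb2, Il18r1, Il18rap, Il1r1, Il10ra and Il27ra. Members were chosen by gene name, and every probe set annotated to 1 of these genes and to no other was taken, which gave 16 of the 45037 probe sets tested. Each gene is represented by its brightest probe set, averaged over all arrays, so 9 of 18193 genes are described. Expression was measured on 6 mouse whole-genome arrays, 3 of SAP-deficient and 3 of wild-type (WT) CD4 T cells, in log2 units. SAP is an adaptor protein, encoded by Sh2d1a, that carries signals from SLAM-family receptors. All the cells carried the OT-II transgenic T cell receptor, which sees an ovalbumin peptide, and came from spleen and lymph nodes. Naive cells were cultured for 3.5 days with peptide and T-depleted splenocytes treated with mitomycin C, in IL-6 (100 ng/ml) and IL-21 (50 ng/ml). Both genotypes also received blocking antibodies, to TGF-β at 20 µg/ml, to IL-4 at 10 µg/ml, and to IL-12 and IFN-γ, a mixture meant to yield cells resembling follicular helper T (Tfh) cells. The labels give neither the age or sex of the mice nor whether arrays of a genotype came from separate animals or cultures, so p-values measure the spread between these arrays only, part of which may be technical.

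Interleukin receptors work as pairs of chains. IL-4, IL-7, IL-12, IL-10 and IL-27 bind receptors that carry JAK kinases, which phosphorylate STAT transcription factors, whereas IL-1 and IL-18 bind receptors of another family that signal through the adaptor MyD88. In T helper cells, IL-12 and IL-18 receptors are known from Th1 cells, the IL-4 receptor from Th2 cells, the IL-1 receptor from Th17 cells and the IL-7 receptor from naive and memory cells.

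None of the 9 receptor genes differed detectably between SAP-deficient and WT cells. Log2 changes, which throughout are SAP-deficient minus WT, ran from -0.24 (Il12rb2) to 0.25 (Il10ra), and every gene's SAP-deficient and WT values overlapped. Limma (lmFit on genotype alone, eBayes with an intensity trend) called 0 of the 9 at an adjusted p under 0.05, where it called 0% of all genes, and 0 of the 9 at an unadjusted p under 0.05, where 1.31% of all genes passed. The adjusted p over all genes was 1.00 for each member. Over all genes the groups did not overlap in 5.32%. This fit did not call the targeted gene Sh2d1a either (change -4.31, adjusted p 0.0501, limma), so 0 called says little about smaller changes. For the probe sets that stand for the genes, the 95% intervals bound what could be missed. The lowest bound was -0.73 (Il12rb2), a 1.66-fold lower level, and the highest 0.63 (Il10ra), a 1.55-fold higher one. A second Il18rap probe set had an upper bound of 0.72, a 1.65-fold higher level. Of the 9, 7 lay above 0 and the median change was 0.08, against 53.3% above 0 and a median of 0.01 over all genes.

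**Figure D1:**
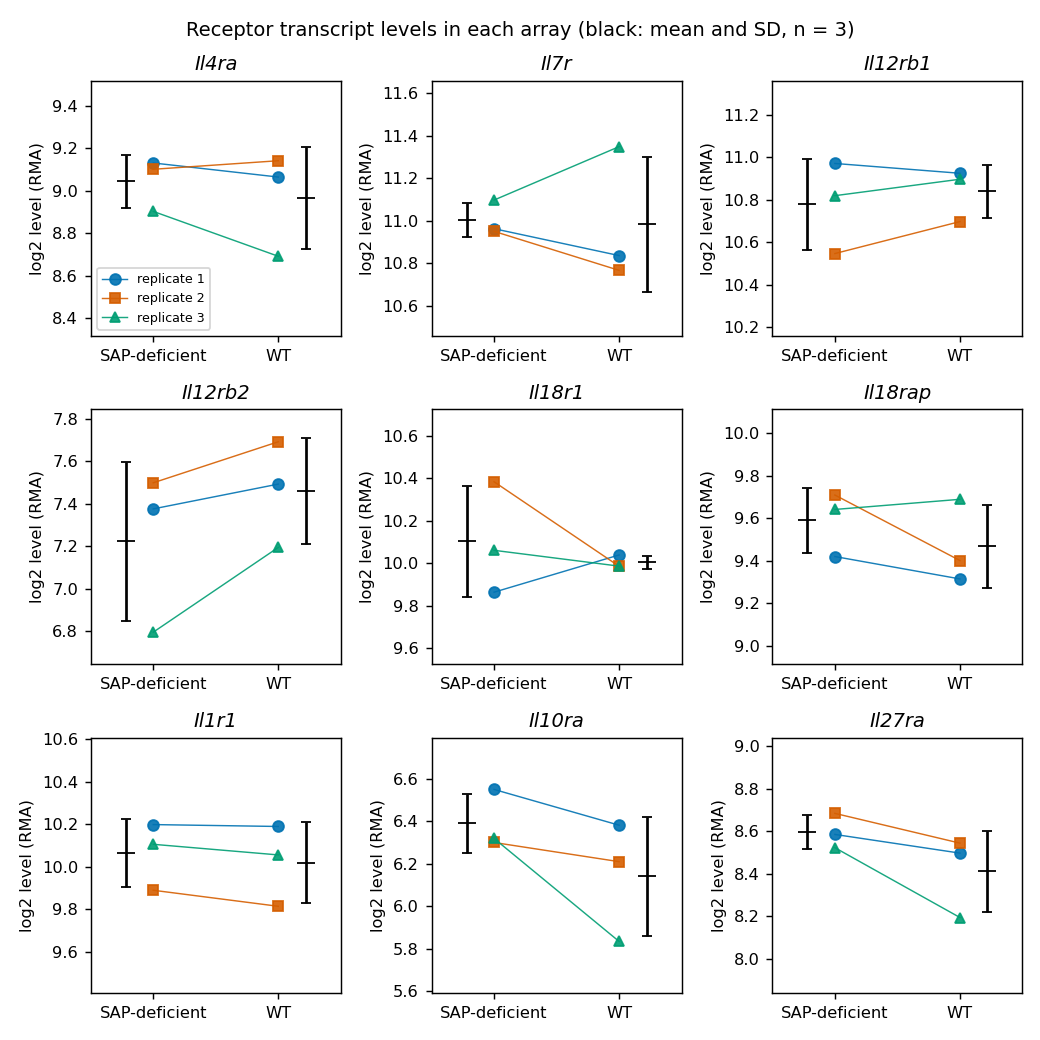
Log2 level (y axis, each panel spanning the same 1.2 units) of each receptor gene in SAP-deficient arrays (left) and WT arrays (right). Lines join arrays of equal replicate number, and black marks give the mean and SD of 3 arrays. In all 9 panels the genotypes overlap.

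The targeted transcript was low in the SAP-deficient arrays, and T cell markers were high in all. Sh2d1a had values of 5.47, 4.10 and 4.92 in SAP-deficient arrays, against 9.50, 8.52 and 9.39 in WT arrays, a change of -4.31 ± 0.37 (SE) with an adjusted p of 0.0501 over genes (limma). Of the T cell marker genes, Cd3d and Cd2, which encode T cell surface proteins, averaged 12.93 and 12.36, and the 10 measured T cell markers had array means of 11.47 to 11.83 in SAP-deficient and 11.51 to 11.83 in WT arrays. Of the Tfh markers, Il21 and Icos averaged 12.11 and 11.67, while Cxcr5, the follicle-homing receptor, averaged 5.81 and the Tfh factor gene Ascl2 4.82, beside a median of 5.75 over all probe sets. Arrays of opposite genotype but equal replicate number resembled each other (r over probe sets of other genes 0.996 to 0.998, against 0.989 to 0.994 for other pairs of opposite genotype). The pairs were set by these same correlations. The labels state no pairing, so differences within these matched pairs are given as values, with a limma fit that has the pair as a block. Arrays measure the whole culture, in which fewer cells of a type and less RNA per cell cannot be told apart.

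Upstream sequences are shown for Il12rb2 and Il7r, the members with the widest ranges over the arrays among those that have an entry in the promoter table. Each window runs from 250 bases before to 50 bases after the annotated start (RefSeq, GRCm38.p6), at chr6:67376139-67376438, minus strand, for Il12rb2 and at chr15:9529827-9530126, minus strand, for Il7r. Capitals mark matches, on either strand, to TTCNNNGAA, the core bound by STAT factors, to CCGGAAG, an ETS-family core, or to TGTGGT, a RUNX-family core.
Il12rb2: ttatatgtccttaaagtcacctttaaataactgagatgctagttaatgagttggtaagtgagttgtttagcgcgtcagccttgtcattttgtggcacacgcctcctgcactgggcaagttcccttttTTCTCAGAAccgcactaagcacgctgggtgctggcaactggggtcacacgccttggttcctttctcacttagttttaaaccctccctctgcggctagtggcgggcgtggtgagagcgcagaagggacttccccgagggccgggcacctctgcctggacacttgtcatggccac
Il7r: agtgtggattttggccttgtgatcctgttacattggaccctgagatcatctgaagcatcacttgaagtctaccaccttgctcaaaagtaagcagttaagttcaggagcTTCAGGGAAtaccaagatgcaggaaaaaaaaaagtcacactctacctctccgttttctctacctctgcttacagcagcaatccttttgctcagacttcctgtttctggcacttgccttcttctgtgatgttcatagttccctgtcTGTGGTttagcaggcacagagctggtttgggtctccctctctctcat
The Il12rb2 window held 1 STAT match and the Il7r window 1 STAT and 1 RUNX match, which do not overlap, while neither held CCGGAAG. Other letters that ETS factors bind were not searched for, so ETS sites of another form may be present. Of 32851 promoter windows in the table, 8.30% held the STAT core, 8.86% CCGGAAG and 16.8% the RUNX core. Such matches describe the letters only. In all, 6 of the 9 genes had an entry, with 9 windows, and Il10ra, Il12rb1 and Il27ra had none.

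Il4ra encodes the chain that binds IL-4, and with a partner chain IL-13, and activates STAT6. It was at 9.13, 9.10 and 8.90 in SAP-deficient arrays, against 9.06, 9.14 and 8.69 in WT arrays. The third replicates were the lowest of both genotypes, and the groups overlapped (change 0.08, 95% interval -0.27 to 0.43). Its other probe sets gave -0.11 ± 0.13 and -0.004 ± 0.13 (SE), so the sign depended on the probe set.

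Il7r encodes the IL-7 receptor chain, which also serves TSLP receptors and supports T cell survival. SAP-deficient arrays gave 10.96, 10.95 and 11.10, and WT arrays 10.84, 10.77 and 11.35. The highest value was that of WT replicate 3, and the 3 SAP-deficient values lay inside the WT range. Its change was 0.02 (95% interval -0.33 to 0.37), with 0.13, 0.18 and -0.25 within the matched pairs. A second, dimmer Il7r probe set showed the same highest array, with 9.36, 9.12 and 9.51 in SAP-deficient arrays against 9.16, 9.06 and 9.54 in WT arrays.

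The IL-12 receptor needs both Il12rb1, a chain shared with the IL-23 receptor, and Il12rb2, the chain on which STAT4 docks. Il12rb1 values were 10.97, 10.55 and 10.82 in SAP-deficient arrays and 10.92, 10.70 and 10.90 in WT arrays, with the second replicates lowest in each genotype. For Il12rb2 the SAP-deficient arrays stood at 7.38, 7.50 and 6.79 and the WT arrays at 7.49, 7.69 and 7.19. This was the widest range of the 9 genes, 0.90 log2 units, and its lowest array was SAP-deficient replicate 3. The change was -0.06 (95% interval -0.35 to 0.23) for Il12rb1 and -0.24 (-0.73 to 0.26) for Il12rb2. Within matched pairs Il12rb2 differed by -0.12, -0.19 and -0.40, and Il12rb1 by 0.05, -0.15 and -0.08.

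Il18r1 encodes the chain that binds IL-18 and Il18rap the accessory chain needed for its signal. Il18r1 stood at 9.86, 10.38 and 10.06 in SAP-deficient arrays and at 10.04, 9.99 and 9.99 in WT arrays. Its WT values were nearly equal (SD 0.03, n = 3), and the SAP-deficient ones lay on both sides of them (SD 0.26, n = 3). Il18rap was measured at 9.42, 9.71 and 9.64 in SAP-deficient arrays and at 9.31, 9.40 and 9.69 in WT arrays. Both genes were higher in SAP-deficient replicate 2 than in WT replicate 2, by 0.40 and 0.31, and the overall changes were 0.10 (95% interval -0.22 to 0.42) and 0.12 (-0.20 to 0.44). The second Il18rap probe set had values of 9.28, 9.45 and 9.79 in SAP-deficient arrays against 9.12, 9.0025 and 9.77 in WT arrays. Its change was 0.21 ± 0.22 (SE, 95% interval -0.30 to 0.72).

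Il1r1 encodes the signalling receptor for IL-1. It varied by replicate number and little by genotype, with 10.20, 9.89 and 10.11 in SAP-deficient arrays against 10.19, 9.81 and 10.06 in WT arrays. The differences within matched pairs were 0.01, 0.08 and 0.05, while the pair means spanned 0.34. The overall change was 0.04 (95% interval -0.26 to 0.35). A second probe set averaged 2.43, under the median of 5.75, and changed by -0.05 ± 0.07 (SE).

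Il1r1, Il18r1 and Il18rap lie in 1 cluster of receptor genes on mouse chromosome 1, in the order Il1r2, Il1r1, Il1rl2, Il1rl1, Il18r1 and Il18rap in the RefSeq table. Il1r2, which encodes a decoy that binds IL-1 without signalling, had values of 13.12, 12.74 and 13.07 in SAP-deficient arrays and 13.07, 12.74 and 13.14 in WT arrays. Like Il1r1 it was lowest in the second replicates of both genotypes (change -0.01 ± 0.13, SE). Il1rl2, which encodes the IL-36 receptor, stood at 8.46, 8.75 and 7.94 in SAP-deficient arrays and at 8.28, 8.74 and 7.51 in WT arrays, highest in the second replicates and lowest in the third, with a change of 0.20 ± 0.32 (SE). It is named here for its position. Il1rl1 was not analysed here.

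Il10ra encodes the chain that binds IL-10, a cytokine that restrains immune responses through STAT3. It had values of 6.55, 6.30 and 6.32 in SAP-deficient arrays and 6.38, 6.21 and 5.83 in WT arrays. The lowest was WT replicate 3, and 2 SAP-deficient arrays lay under the highest WT array. The change was 0.25 (95% interval -0.13 to 0.63). The other probe sets of the gene, which were dimmer, gave 0.06 ± 0.15 and -0.14 ± 0.11 (SE).

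Il27ra encodes the chain that binds IL-27, which signals with gp130 and is known to act on early helper T cells. SAP-deficient values were 8.59, 8.68 and 8.52, against 8.50, 8.54 and 8.19 in WT arrays. Again WT replicate 3 was lowest, and SAP-deficient replicate 3 lay under the highest WT array. The change was 0.19 (95% interval -0.13 to 0.50).

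**Figure D2:**
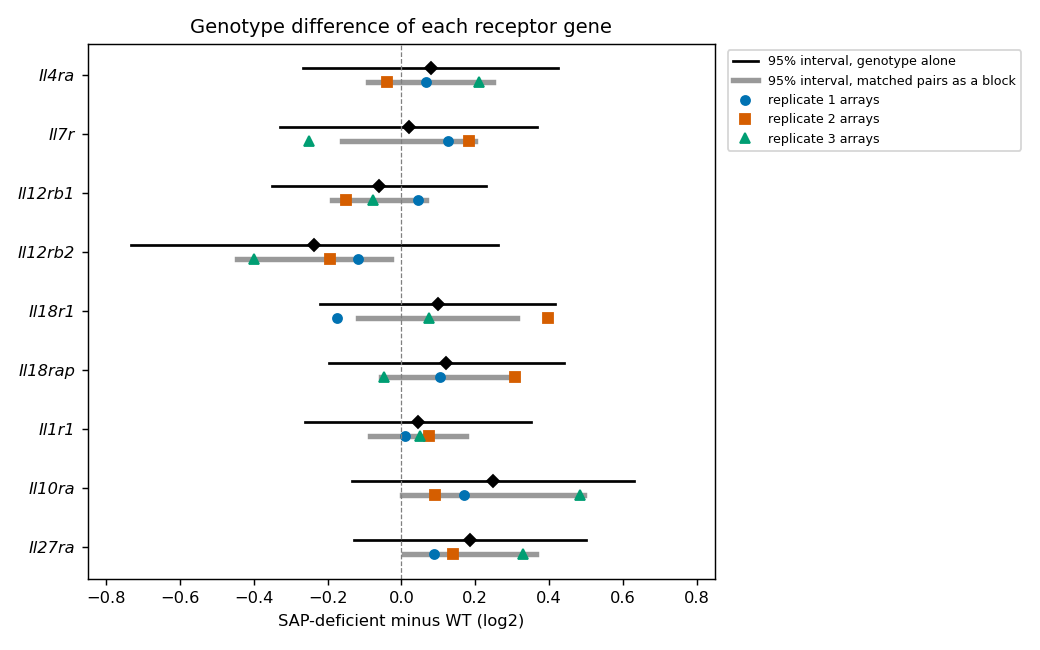
SAP-deficient minus WT difference (x axis, log2) of each receptor gene. Diamonds and thin bars give the change and its 95% interval with genotype alone, thick bars the interval with matched pairs as a block, and coloured symbols the difference between arrays of equal replicate number. All thin bars cross 0.

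Fitting the matched pairs as a block, a choice made with earlier results of these data known, narrowed the intervals, and limma called no receptor gene and 0.00550% of all genes. Il10ra, Il27ra and Il12rb2 then had unadjusted p-values of 0.0487, 0.0441 and 0.0303 (limma), 3 of the 9 genes beside 6.10% of all genes, and their adjusted p-values over genes were 0.814, 0.814 and 0.800. Il10ra, Il27ra and Il1r1 were higher in all 3 matched pairs, as were 15.6% of all genes, and Il12rb2 was lower in all 3, as were 13.1% of all genes. For Il18rap this varied with the probe set. The one that stands for the gene differed by 0.11, 0.31 and -0.05 (unadjusted p 0.153, limma with the block). The second differed by 0.16, 0.45 and 0.03 (unadjusted p 0.0350, adjusted p over probe sets 0.873, same fit). The differences of Il10ra (0.17, 0.09 and 0.48), Il27ra (0.09, 0.14 and 0.33) and Il12rb2 were largest in pair 3. Without pair 3 the blocked changes were 0.13 for Il10ra, 0.11 for Il27ra and -0.15 for Il12rb2, with unadjusted p-values of 0.277, 0.189 and 0.130 (limma). Without that pair Il7r changed by 0.16 and Il18rap by 0.21, with unadjusted p-values of 0.0202 and 0.0166 and adjusted ones of 0.658 and 0.633 (limma). The members under an unadjusted p of 0.05 thus differed with and without pair 3. The fit without pair 3 uses fewer arrays and called 36 genes, against 1 with all pairs. Its share of all genes under an unadjusted p of 0.05 was not counted, so these p-values lack a background.

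The receptor levels also varied by replicate number. Pairs held from 37.0% (Il18r1) to 96.7% (Il1r1) of a member's variance over the arrays, beside a median of 66.9% over all genes, and genotype held from 0.27% (Il7r) to 37.7% (Il27ra), beside a median of 6.36%. The members did not share 1 pattern: pair 3 had the highest mean for Il7r and Il18rap and the lowest for Il4ra, Il12rb2, Il10ra and Il27ra.

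Other transcripts also set the third replicates apart. The 11 measured genes of mitosis and S phase, all above 0 in change (median 0.10), had means of 10.48, 10.56 and 10.62 in SAP-deficient arrays. In WT arrays the means were 10.65, 10.62 and 10.07. WT replicate 3, where Il4ra, Il10ra and Il27ra were lowest and Il7r highest, was the lowest array for this list. Within matched pairs these genes differed on average by -0.16, -0.06 and 0.55. Their summed level on the linear scale was 21384 to 23269 in SAP-deficient and 17547 to 23191 in WT arrays. The 6 MHC class II genes, all below 0 in change, had means of 8.27, 8.05 and 7.78 in SAP-deficient arrays and 8.38, 8.07 and 8.24 in WT arrays, with sums of 2406 to 3389 in SAP-deficient and 2747 to 3467 in WT arrays. SAP-deficient replicate 3, where Il12rb2 was lowest, had the lowest MHC class II mean. B cell genes, 11 of 11 below 0, summed to 1500 to 2471 in SAP-deficient and 1661 to 2723 in WT arrays, and 6 of the 11 averaged above the median probe set, among them Ighm (10.39), Ebf1 (7.02) and the B cell receptor chain Cd79b (6.30), with Ms4a1 (5.33) and Pax5 (5.03) under it. Myeloid and dendritic genes, 8 of 13 below 0, summed to 796 to 1142 in SAP-deficient and 864 to 1101 in WT arrays, and 8 of the 13 averaged above the median probe set, among them Cd68 (7.04), Lyz2 (6.99) and Csf1r (6.95), with Adgre1 (4.97) under it. In this list Mpeg1, a macrophage gene, was the 1 gene with an unadjusted p under 0.05 (0.0378, adjusted p 1.00, limma), beside 1.31% of all genes. It had 5.23, 5.37 and 5.27 in SAP-deficient arrays and 5.50, 5.49 and 5.73 in WT arrays, a change of -0.28 ± 0.11 (SE). Its groups did not overlap, nor did those of Siglech (change -0.23), as in 5.32% of all genes. NK, NKT and CD8 T cell genes, 2 of 7 below 0, summed to 1063 to 1315 in SAP-deficient and 964 to 1077 in WT arrays. Genes of neutrophils, mast cells and basophils, 5 of 8 below 0, all lay under the median probe set. B cells and myeloid cells are known to carry receptors for IL-4 and IL-10. The part of any of these lists, mitosis and S phase included, in the receptor values was not tested.

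**Figure D3:**
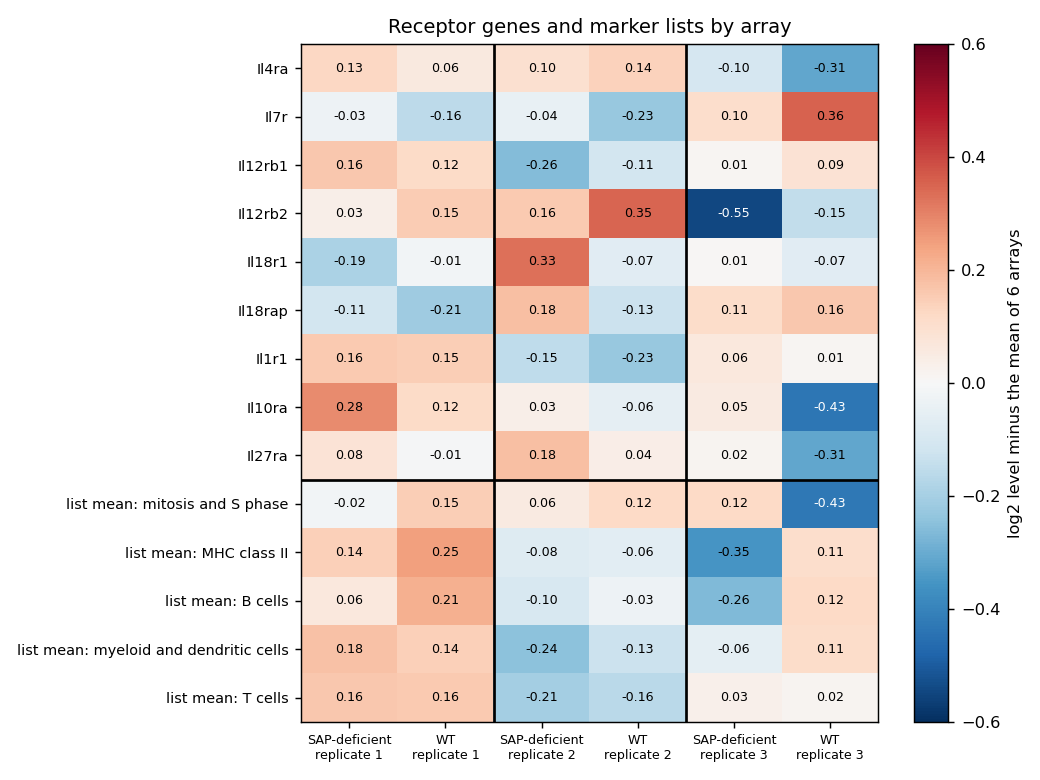
Log2 level minus the mean of the 6 arrays (colour and printed number) for each receptor gene and for the mean of 5 marker lists, with SAP-deficient left of WT for each replicate number. WT replicate 3 is lowest for Il4ra, Il10ra, Il27ra and the mitosis and S phase list and highest for Il7r.

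The genes whose levels followed the most variable receptors most closely were found over the 6 arrays among 9097 genes at or above the median level. Likeness was the root mean square difference of mean-centred log2 values, a description in which the arrays share their matched pairs. Closest to Il12rb2 were Ccdc40 (0.04), Abhd4 (0.06) and Zfp799 (0.07). Closest to Il10ra were the sialidase gene Neu1 (0.04), Ly9 (0.05), which encodes a SLAM-family receptor, and Smim11 (0.06). Closest to Il7r were Tet2 (0.05), which encodes an enzyme that oxidises methylated cytosine, Map1lc3a (0.05), which encodes an autophagy protein, and Nol8 (0.05).

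Partner chains showed no detectable genotype difference. Of 10 measured genes, 6 were higher and 4 lower with a median change of 0.02. None passed an unadjusted p under 0.05, beside 1.31% of all genes (limma). After Il1r2, the highest levels in this list were those of Sigirr, which restrains IL-1 family receptors (-0.03 ± 0.18, SE), and Crlf2, the TSLP receptor chain that pairs with Il7r (0.03 ± 0.08). Il1rap, the accessory chain of Il1r1, had values of 9.16, 9.09 and 9.73 in SAP-deficient arrays and 9.03, 8.90 and 9.49 in WT arrays, and was named for its role with values known. With the pairs as a block it was the 1 gene of the 10 with an unadjusted p under 0.05 (0.0187, adjusted p 0.775, limma), beside 6.10% of all genes. Il1rn, the gene of the soluble IL-1 receptor antagonist, had the largest difference of the list, -0.43 ± 0.30 (SE), and was chosen after its values were seen. It was at 7.18, 6.66 and 6.61 in SAP-deficient arrays and 7.35, 6.59 and 7.81 in WT arrays, so the difference lay mainly in the third replicates. Il2rg and Il23r were not analysed here.

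Among 13 measured ligand genes, 8 were higher and 5 lower (median 0.07). Only Il7, the ligand of Il7r, had an unadjusted p under 0.05 (0.0233, adjusted p 1.00, limma), with -0.31 ± 0.11 (SE). That is 1 of the 13 genes, beside 1.31% of all genes. Il7 values were 3.11, 3.36 and 3.39 in SAP-deficient arrays and 3.52, 3.76 and 3.52 in WT arrays. The groups did not overlap, as in 5.32% of all genes, but all values lay far under the median probe set of 5.75. The Il4ra ligands Il4 and Il13, named for that role with values known, varied widely between replicate numbers. Il4 had 11.09, 9.76 and 11.73 in SAP-deficient arrays and 10.57, 9.53 and 11.29 in WT arrays. Il13 had 8.58, 8.16 and 9.88 in SAP-deficient arrays and 8.25, 7.66 and 9.05 in WT arrays. Their changes were 0.40 ± 0.55 and 0.55 ± 0.47 (SE) with genotype alone. Within matched pairs Il4 differed by 0.52, 0.23 and 0.44 and Il13 by 0.34, 0.49 and 0.82. With the pairs as a block the 95% intervals were 0.25 to 0.55 for Il4 and 0.33 to 0.77 for Il13, with unadjusted p-values of 0.000161 and 0.000276 and adjusted p-values over genes of 0.195 and 0.272 (limma). In that fit 5 of the 13 ligand genes had an unadjusted p under 0.05, 3 higher and 2 lower, beside 6.10% of all genes, and none was called. Il27 was not analysed here.

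Downstream of the receptors, 12 of 17 measured kinases, STAT factors and adaptors were higher and 5 lower, with a median of 0.06. None was under an unadjusted p of 0.05, beside 1.31% of all genes (limma). The highest levels were those of Jak2 (0.07 ± 0.07, SE), Stat5a, which IL-7 activates (0.18 ± 0.11), and Stat6, which IL-4 activates (0.12 ± 0.13). Stat4, the factor that docks on Il12rb2 and was named for that role with values known, had 9.39, 9.56 and 9.08 in SAP-deficient arrays and 9.66, 9.60 and 9.49 in WT arrays. SAP-deficient replicate 2 lay above WT replicate 3, so the groups overlapped, and its change was -0.24 ± 0.14 (SE). With the pairs as a block 5 of the 17 had an unadjusted p under 0.05, 3 higher and 2 lower, beside 6.10% of all genes, and none was called (limma). The smallest was that of Irs2 (change -0.35, unadjusted p 0.00874, adjusted p 0.722, limma), chosen after its values were seen. Feedback inhibitors had the narrowest spread of these lists, with 9 of 13 higher, a median of 0.02 and a range from -0.03 to 0.11. None was under an unadjusted p of 0.05 in either fit (limma). Over all genes 1.31% were with genotype alone and 6.10% with the block. The highest in level were Cish (0.10 ± 0.14), induced by STAT5, the phosphatase gene Ptpn2 (0.02 ± 0.08), and Socs7 (0.02 ± 0.14).

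Of 14 transcription factor genes known to act on such receptors, 9 were higher and 5 lower with a median of 0.09. None had an unadjusted p under 0.05, beside 1.31% of all genes (limma). The highest levels were those of Irf4 (0.0003 ± 0.06, SE), Ets1 (0.14 ± 0.18) and Gfi1, a repressor of Il7r (0.17 ± 0.13). Foxo1, an activator of Il7r, changed by -0.10 ± 0.12, and Tbx21, which promotes Il12rb2, by -0.06 ± 0.11. Both were named for these roles with values known. With the pairs as a block 7 of the 14 had an unadjusted p under 0.05, 6 higher and 1 lower, beside 6.10% of all genes, and none was called (limma). The smallest were those of Foxp1 (change 0.20, 95% interval 0.08 to 0.31), Batf (0.17, 0.05 to 0.29) and Gfi1 (0.17, 0.05 to 0.30), with adjusted p-values over genes of 0.668, 0.722 and 0.722, and these were chosen after their values were seen.

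**Figure D4:**
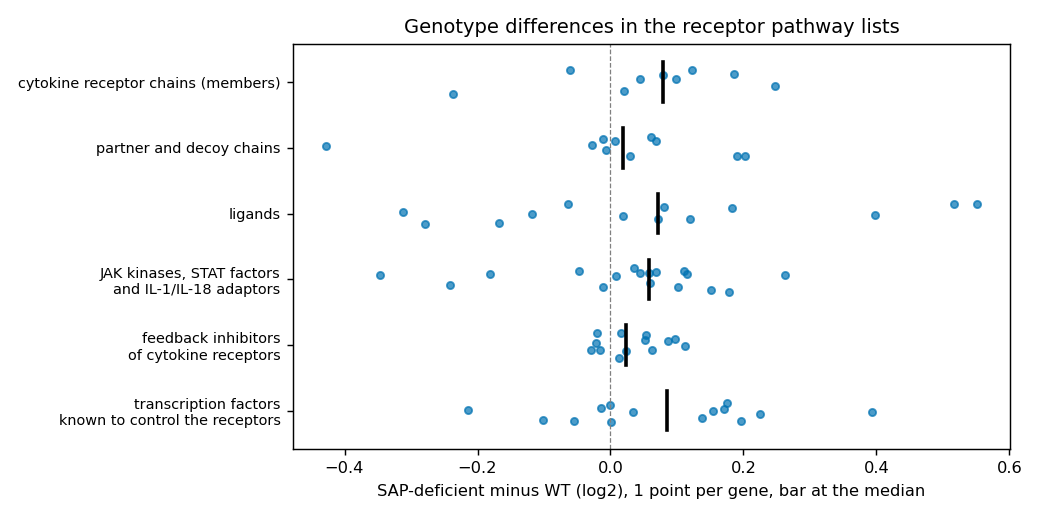
SAP-deficient minus WT difference (x axis, log2) of each measured gene in the receptor list and 5 lists of partners, ligands, signalling molecules, inhibitors and regulators. Each point is 1 gene and each bar the list's median, from 0.02 to 0.09.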

How the data were processed

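RNA was measured on 6 arrays, 3 SAP-deficient and 3 WT, grouped by the strain label and numbered in accession order. The deposited values are log2 levels that the authors made with Affymetrix Expression Console and RMA, per the submitters' processing notes, with versions, build and annotation not given in the sources used. RMA equalises the arrays and compresses differences of dim probe sets. The number of arrays limits the precision.

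Of 45101 probe sets, 64 controls were left out. Platform annotation named 1 gene for 34945 of the rest, several for 932 and none for 9160, and RefSeq matched 34741 of the first. Limma 3.58.1 (R 4.3.3) was fitted to 45037 probe sets (genotype alone, trend, two-sided), with Benjamini-Hochberg adjustment over 18193 genes at 0.05. The script was tested on simulated data. Matched pairs were set on probe sets of other genes, as the assignment with the highest summed correlation. There, deviations from each genotype's mean correlated at 0.52, 0.73 and 0.60 inside pairs and at most at -0.10 outside them. Those values come from the probe sets that set the pairs, and centring within a genotype pushes the outside ones down. They are therefore not separate support for the pairing.

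Members and lists were chosen with earlier results of these data known. Named genes were the 9 receptors, Sh2d1a, pathway list genes with an unadjusted p under 0.05 or else the 3 with the highest level, the 2 highest genes of a cell marker list, and the 3 closest patterns of the 3 widest-ranging receptors. Others are marked or are further cell markers, chosen with values known. Alternatives covered variance model, dim probe sets, normalization, array weights, probe set choice, pair block and removal of each array.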

Additional observations from a re-analysis of the deposited data

How the results depend on the processing

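No receptor gene was called under any of 15 alternatives (adjusted p from 0.633 to 1.00, limma), and 125 of 135 values kept their sign. That count says little about stability, because settings that alter only the variance model, the genes tested or the block leave each change as it was. Of the 10 values that reversed, 8 came from leaving out single arrays. Averaging every probe set of each gene put Il4ra at -0.011 and Il1r1 at -0.0017, because the added probe sets differ in sign. Leaving out single arrays gave from -0.058 to 0.17 for Il4ra, -0.089 to 0.20 for Il7r, -0.16 to 0.056 for Il12rb1, -0.37 to -0.022 for Il12rb2, -0.041 to 0.22 for Il18r1, 0.045 to 0.23 for Il18rap, -0.058 to 0.13 for Il1r1, 0.094 to 0.37 for Il10ra and 0.077 to 0.25 for Il27ra. Removing 1 array unbalances the matched pairs. Without WT replicate 3 Il10ra was at 0.09 and Il27ra at 0.08, and without SAP-deficient replicate 3 Il12rb2 was at -0.02. Averaging its probe sets moved Il10ra to 0.06. Sh2d1a kept its direction and was called with robust variance (-4.31, adjusted p 0.0405), the matched-pair block (-4.31, adjusted p 1.99e-07), that block without pair 3 (-4.22, adjusted p 2.26e-12, added after seeing the data) and without WT replicate 2 (-4.61, adjusted p 0.0273), and ran from -4.63 to -3.94 without single arrays (limma). Genes called numbered 0 with genotype alone, 1 with robust variance, 1 with the block, 36 with the block without pair 3, and 0 to 1 without single arrays. The alternatives that moved this count change the variance or the arrays used, and the cause was not tested. The labels give no shared replicate numbers, so the pairing rests on the data alone.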
